A study of Mus musculus with 6 samples.

Results

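The genes described are 37 genes of the mouse lysosome, given by symbol: lumenal proteases, glycosidases, other hydrolases with their activators, lysosomal membrane proteins, and the transcription factors TFEB, TFE3 and MITF. Of the 31205 genes in the read count table, 36 carried one of these symbols. Counts of Ifi30, the gene of the lysosomal thiol reductase, were not analysed here. Counts of 35 genes passed the filter on low counts, and Ctsh, a cathepsin with aminopeptidase activity, did not. It had 1, 0 and 0 counts in knockout libraries 1, 2 and 3, and 0, 0 and 1 in control libraries 1, 2 and 3. The libraries are 3 of a PD-L1 knockout derivative of DC2.4 and 3 of DC2.4 labelled Control. DC2.4 is a mouse dendritic cell line, and PD-L1 is the product of Cd274, a surface protein that restrains T cells through PD-1. By its title, the series concerns ferroptosis of dendritic cells, a death by iron-dependent lipid damage, in chemotherapy. No drug is named for these 6 libraries. How the knockout was made, whether it is 1 clone, and whether a group's libraries are separate cultures are not given in the labels.

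Lysosomes are acidic compartments in which hydrolases break down proteins, glycans, lipids and nucleic acids delivered by endocytosis, phagocytosis and autophagy. In dendritic cells their proteases also cut antigens and the invariant chain for presentation on MHC class II. Many lysosomal genes share a short promoter element with the core CACGTG, known as the CLEAR element, which TFEB, TFE3 and MITF bind. These factors are held in the cytoplasm by mTORC1 at the lysosomal surface, so their activity is set largely by location and phosphorylation, which transcript counts do not report.

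Knockout libraries 1, 2 and 3 held 13501776, 16323812 and 21133688 counts, and control libraries 1, 2 and 3 held 10918498, 15909256 and 23250065. The Cd274 transcript was no less abundant under the knockout label, with 102, 81 and 163 counts in knockout libraries 1, 2 and 3 and 52, 99 and 171 in control libraries 1, 2 and 3 (log2 fold change 0.28, SE 0.25, edgeR adjusted p = 0.415). Counts over a whole gene do not show a change within its coding sequence, so the directions below rest on what the labels say. Control library 2 stood apart by 3656 counts over 8 stromal and fibroblast markers, of which Col1a1 gave 2235 and Fn1 1382. The same markers summed to 0, 3 and 0 in knockout libraries 1, 2 and 3, and to 6 and 9 in control libraries 1 and 3. Of 14 dendritic and myeloid markers 11 were tested, while Flt3 (0 to 1 counts per library), Batf3 (0 to 4) and H2-Aa (0 to 11) were near 0. Of the 11, 0 were higher and 3 lower in knockout by edgeR: the macrophage lysozyme Lyz2 (log2 fold change -2.81, adjusted p = 9.34e-05), the CSF1 receptor Csf1r (-0.72, adjusted p = 0.0143) and the dendritic cell factor Zbtb46 (-0.72, adjusted p = 0.0490). Over all 11453 tested genes, 11.8% were higher and 13.5% lower. Summed CPM of the 14 markers, scaled by total counts, were 1709, 1321 and 1414 in knockout libraries 1, 2 and 3. In control libraries 1, 2 and 3 they were 1929, 1880 and 1770, with no overlap on that scale. All other CPM were TMM-scaled, with factors 0.98, 0.91 and 0.95 in knockout libraries and 1.02, 1.06 and 1.08 in control libraries. Dividing the sums by these factors puts knockout library 1 above control library 3, so the groups overlap under TMM scaling. The part of these marker differences in the lysosomal results was not tested. In RNA of whole cultures, fewer cells with a transcript and less of it per cell cannot be told apart.

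The promoter element for which the family is known was looked up first, because it is the sequence by which the family's regulation is described. RefSeq windows on GRCm38.p6, from 250 bases before to 50 bases after a gene's start, were found for 34 of the 37 genes, Ifi30 included. The 6 letters CACGTG, which read the same on both strands, occurred in 13 of them (38.2%), against 12.1% of 9033 tested genes with a window and 8.09% of 27025 genes in the whole table. The longer TCACGTG, searched on both strands and always containing the shorter motif, occurred in 11 genes (32.4%), against 7.25% of tested genes and 4.29% of the whole table. Of the 11, 10 belonged to tested genes and are shown, and the other was Ifi30. Most of the genes, 21 of 34, held neither motif in any of their windows. Median GC content of these windows was 56.3% for the lysosomal genes and 60.7% for all tested genes. Lamp1 held 4 such sites within 68 bases upstream of its start, and Ctsa, Ctsd, Gla and Mcoln1 held 2 each. The stretches that follow are written 5′ to 3′ on the gene's strand, with the core and a flanking T or A in capitals. Where a gene had 2 sites, the one closest before the start is given.
Lamp1 (chr8:13159092-13159159, plus strand, 69 to 2 bases before the start): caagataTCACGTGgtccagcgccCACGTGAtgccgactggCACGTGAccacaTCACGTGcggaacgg
Ctsd (chr7:142387908-142387937, minus strand, core 98 bases before the start): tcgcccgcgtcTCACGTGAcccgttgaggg
Mcoln1 (chr8:3500462-3500491, plus strand, core 45 bases before the start): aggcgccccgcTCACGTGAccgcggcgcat
Gla (chrX:134601182-134601211, minus strand, core 194 bases before the start): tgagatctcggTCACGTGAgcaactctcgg
Ctsa (chr2:164833749-164833778, plus strand, core 12 bases before the start): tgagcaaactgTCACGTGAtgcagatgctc
Naglu (chr11:101070009-101070038, plus strand, core 73 bases before the start): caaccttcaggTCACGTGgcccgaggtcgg
Lgmn (chr12:102439124-102439153, minus strand, core 49 bases before the start): tggaatgtctgTCACGTGgtccattttata
Glb1 (chr9:114401018-114401047, plus strand, core 48 bases before the start): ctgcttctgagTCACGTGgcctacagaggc
Gaa (chr11:119267811-119267840, plus strand, core 140 bases before the start): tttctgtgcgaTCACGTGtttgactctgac
Arsa (chr15:89477423-89477452, minus strand, core 16 bases before the start): tcaactcagtgTCACGTGttgtctgctcct

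**Figure D1:**
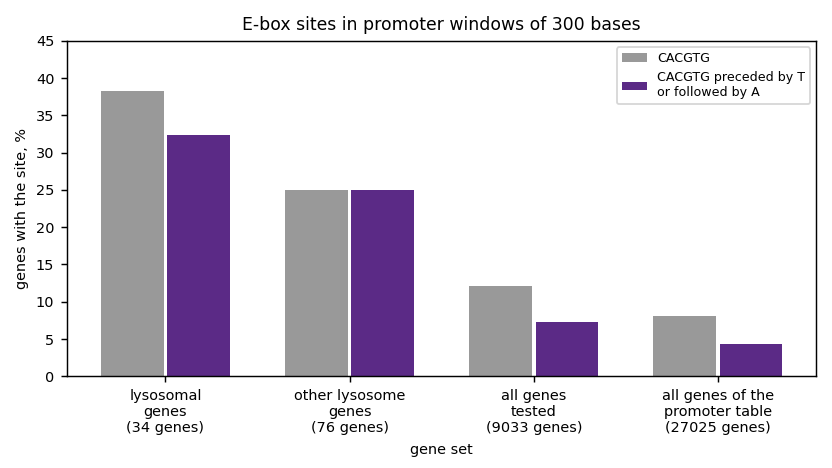
Percentage of genes with CACGTG (grey) and with the core preceded by T or followed by A (purple) in promoter windows of 300 bases, for the lysosomal genes, the other lysosome genes, all genes tested and all genes of the promoter table. The bars of the lysosomal genes stand at 38.2% and 32.4%, and those of all tested genes at 12.1% and 7.25%.

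The levels of these genes spanned more than 2 orders of magnitude. Length was taken over all annotated exons of a gene. Per kilobase of this length, Ctsz, a carboxypeptidase, ranked first, at 485 CPM per kilobase in knockout and 467 in control. Next by group mean were Lgmn, the asparaginyl endopeptidase legumain (291 in knockout and 248 in control), Psap, the precursor of the saposins that assist sphingolipid hydrolysis (263 and 238), and the cysteine protease Ctsb (270 and 227). Ctsb had 397, 199 and 212 CPM per kilobase in knockout libraries 1, 2 and 3, so its place among these 3 differed between libraries. Lamp1, the major glycoprotein of the lysosomal membrane, had 215 CPM per kilobase in knockout and 179 in control. The lowest tested genes were the cathepsin Ctsf (1.26 in knockout and 0.99 in control), Tfeb (2.72 and 2.47) and Galc, the galactosylceramidase (2.88 and 3.31). Tfe3 (4.53 in knockout and 5.01 in control) and Mitf (10.9 and 12.7) stood above Tfeb in both groups. The order of the genes depends on the length used. In CPM without length, Ctsb (1631 in knockout and 1372 in control) and Ctsl (1295 and 1041) stood above Ctsz (700 and 673).

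**Figure D2:**
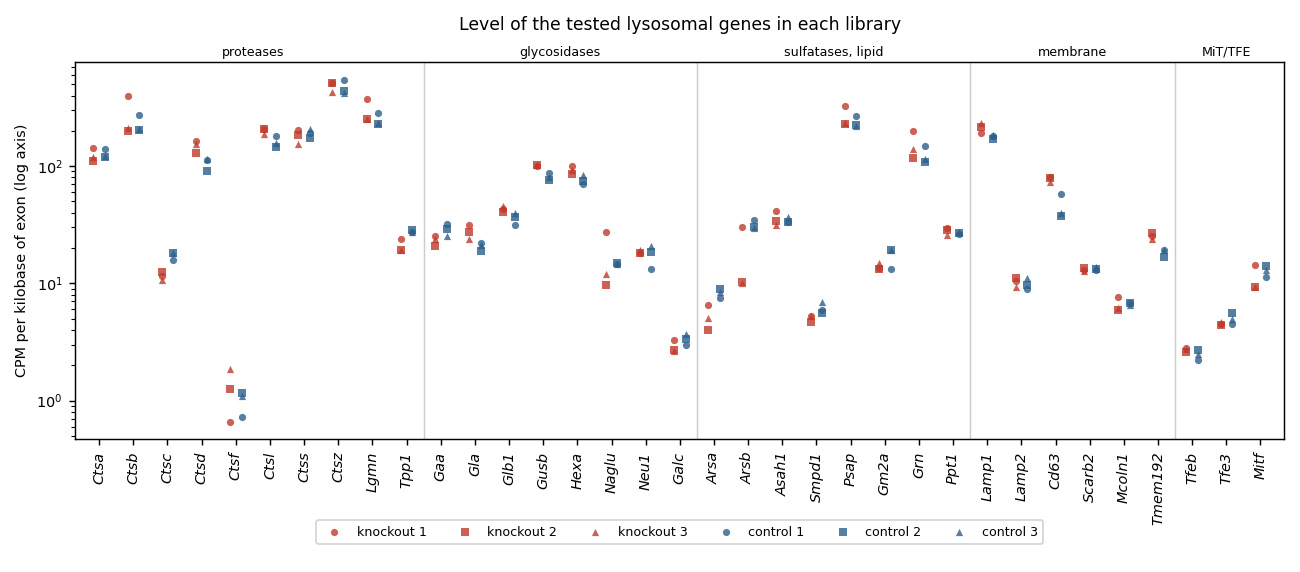
CPM per kilobase of exon on a log axis for the 35 tested lysosomal genes, grouped by role; red symbols are knockout libraries and blue symbols control libraries, with one symbol shape per library number. Ctsz is at the top (485 in knockout and 467 in control) and Ctsf at the bottom (1.26 and 0.99); Arsb and Naglu show knockout library 1 far from knockout libraries 2 and 3.

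Most lysosomal genes did not pass the test between knockout and control cells, and those that did split evenly by direction. Of 35 tested, 3 were higher in knockout (Ctsd, Cd63 and Tmem192) and 3 lower (Ctsc, Tpp1 and Arsa), or 17.1%. Over all 11453 tested genes 25.3% were called, 11.8% higher and 13.5% lower (edgeR quasi-likelihood F test, adjusted p under 0.05). The median log2 fold change was 0.06 over the lysosomal genes and 0.01 over all tested genes, and 21 of the 35 were above 0. Knockout and control libraries did not overlap in CPM for 9 genes that were higher and 5 that were lower in knockout, while 43% of all tested genes did not overlap, 21.1% higher and 21.8% lower. The 95% interval of the log2 fold change lay between -1 and 1 for 31 of the 35, and for 67.8% of all tested genes. Without control library 2, the one with stromal counts, 0 of the 35 were called in either direction, and 5.5% of all tested genes were, 1.43% higher and 4.07% lower. The part of those counts in the result was not tested.

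**Figure D3:**
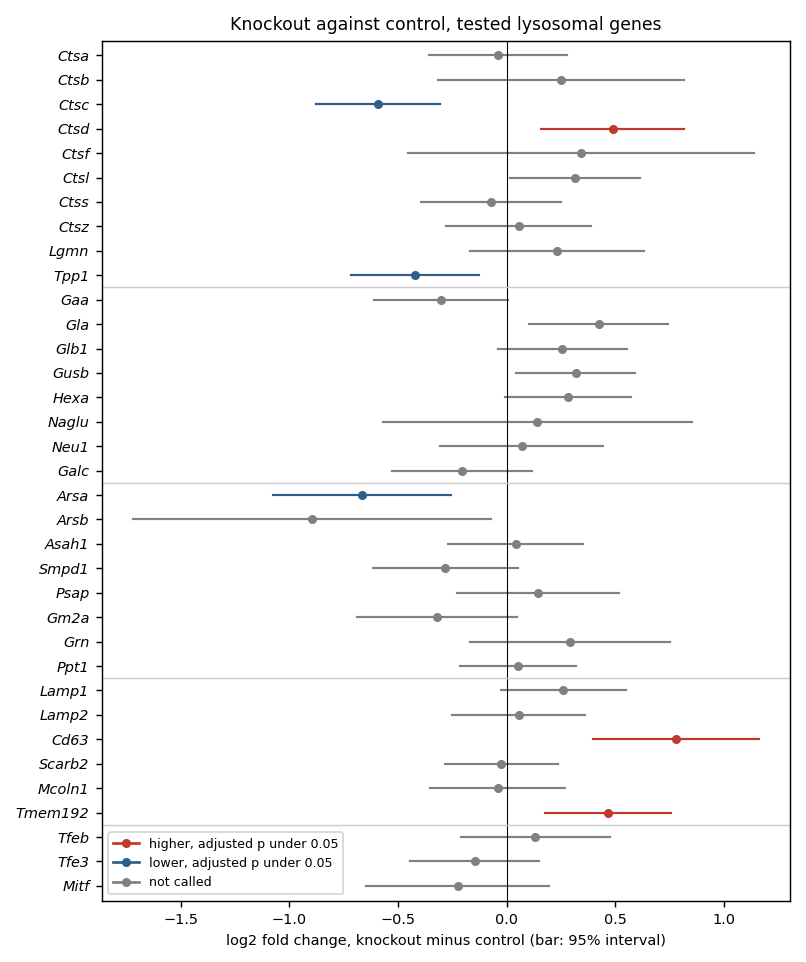
Log2 fold change of knockout minus control with its 95% interval for the 35 tested lysosomal genes, by role, with genes past the threshold in red (higher) and blue (lower). Cd63 (0.78) is the highest point and Arsb (-0.89), which was not called, the lowest.

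Among the 10 tested proteases, the aspartic protease Ctsd was higher in knockout and the dipeptidyl peptidase Ctsc, which activates granule serine proteases, was lower, as was Tpp1, a tripeptidyl peptidase. Ctsd (ENSMUSG00000007891.16, chromosome 7, 142375911 to 142388038, mm10) had 382, 304 and 364 CPM in knockout libraries 1, 2 and 3, against 263, 214 and 271 in control libraries 1, 2 and 3. Every knockout library was above every control library (log2 fold change 0.49, SE 0.15, adjusted p = 0.0374). The gene Gm49369 shares exon positions with Ctsd on the same strand, so reads may have been divided between them. Ctsc (ENSMUSG00000030560.17, chromosome 7, 88278085 to 88310888) had 66.7, 72.3 and 62.6 CPM in knockout libraries and 92.4, 106 and 105 in control libraries, again with no overlap (-0.59, SE 0.13, adjusted p = 0.0121). Tpp1 (ENSMUSG00000030894.5, chromosome 7, 105744811 to 105752235) had 123, 99.1 and 99.6 CPM in knockout libraries and 141, 148 and 141 in control libraries (-0.42, SE 0.13, adjusted p = 0.0424). Its knockout libraries were all below its controls, and knockout library 1 was the nearest to them.

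Each of the protease calls was lost in some fits on 5 libraries, while the fold changes kept their direction. Such fits have fewer residual degrees of freedom, and the part of this in the lost calls was not tested. With 1 library left out, the log2 fold change ran between -0.65 and -0.54 for Ctsc, 0.39 and 0.58 for Ctsd, and -0.54 and -0.36 for Tpp1. Ctsc lost its call on leaving out control library 2 (adjusted p = 0.0733) and on leaving out knockout library 3 (0.0602). Ctsd lost its call without control library 1 (0.0594), 2 (0.18) or 3 (0.0606), and also without knockout library 2 (0.0505) or 3 (0.113). Tpp1 lost its call without control library 1 (0.0704), 2 (0.164) or 3 (0.0961), and also without knockout library 2 (0.143) or 3 (0.158).

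The endosomal cysteine proteases of the MHC class II route did not pass the test. Ctsl, which cuts the invariant chain in thymic epithelium and other cells, had 1335, 1332 and 1217 CPM in knockout libraries 1, 2 and 3 and 1170.4, 940.2 and 1014 in control libraries. Its groups did not overlap, but the difference missed the threshold (log2 fold change 0.31, SE 0.13, adjusted p = 0.108). Ctss, the protease that completes invariant chain cleavage in dendritic cells, had 277, 252 and 209 CPM in knockout libraries and 258, 237 and 282 in control libraries. These groups overlapped (-0.07, 95% interval -0.40 to 0.25). Ctsb (0.25), Lgmn (0.23), Ctsz (0.06), Ctsa, the protective protein of a sialidase and galactosidase complex (-0.04), and Ctsf (0.34) had adjusted p between 0.355 and 0.86.

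None of the 8 glycosidases passed the test (0 higher and 0 lower). Of the 8, 2 had an unadjusted p under 0.05 in edgeR, beside 4680 of 11453 tested genes. Groups did not overlap for 5 of them, 4 higher and 1 lower, beside 43% of all tested genes. DESeq2, for which no share over all genes is given here, called 2 higher in knockout, Gla (adjusted p = 0.0367) and Gusb (0.0422). Without a filter on low counts Gla was called too (adjusted p = 0.0489). Scaled by total counts alone, Gaa was called lower (-0.45, adjusted p = 0.0418), and without knockout library 1 Naglu was called lower. Gla, the alpha-galactosidase that clears globotriaosylceramide, came closest in edgeR, with 103, 89.6 and 78.6 CPM in knockout libraries 1, 2 and 3 and 72.6, 61.0 and 68.9 in control libraries (log2 fold change 0.42, SE 0.14, adjusted p = 0.0554). Gusb, the beta-glucuronidase, had 452, 461 and 467 CPM in knockout libraries and 397, 343 and 369 in control libraries (0.32, SE 0.12, adjusted p = 0.0794). The beta-hexosaminidase alpha chain Hexa (0.28) and the beta-galactosidase Glb1 (0.26) also had every knockout library above every control. Gaa, the acid alpha-glucosidase that degrades glycogen, had every knockout library below every control (-0.30, adjusted p = 0.129). Values were 0.14 for Naglu, a heparan sulfate glucosaminidase, 0.07 for the sialidase Neu1 and -0.20 for Galc.

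Of 8 sulfatases, lipid hydrolases and activator proteins, Arsa was the only one called. Arsa, the arylsulfatase that removes sulfate from sulfatide (ENSMUSG00000022620.14, chromosome 15, 89472476 to 89477425), had 24.1, 14.8 and 18.6 CPM in knockout libraries 1, 2 and 3, against 27.5, 32.8 and 30.8 in control libraries. All knockout libraries were below all controls (log2 fold change -0.67, SE 0.18, adjusted p = 0.0279). Its exons overlap those of C230037L18Rik on the opposite strand, and counts of the pair could not be separated. Arsa lost its call without control library 2 (adjusted p = 0.118) or 3 (0.0687), and also without knockout library 2 (0.0983) or 3 (0.0908). Its log2 fold changes ran between -0.86 and -0.51 over the fits on 5 libraries. Arsb, which desulfates dermatan and chondroitin sulfate, had the lowest fold change of all 35 genes but a wide spread. It had 184, 62.5 and 60.4 CPM in knockout libraries and 208, 183 and 178 in control libraries, so that knockout library 1 lay among the controls (-0.89, SE 0.37, adjusted p = 0.098). Without knockout library 1, Arsb was called (-1.63, adjusted p = 9.39e-06).

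The other 6 genes of that role did not pass the test in edgeR. Grn, the precursor of granulins (0.29, SE 0.21), and Psap (0.14) were above 0. Asah1, the acid ceramidase (0.04), and Ppt1, a palmitoyl-protein thioesterase (0.05), had intervals of -0.27 to 0.35 and -0.21 to 0.32. Smpd1, the acid sphingomyelinase (-0.28), and Gm2a, the GM2 ganglioside activator (-0.32), were below 0. Gm2a was called without control library 1 (-0.47, adjusted p = 0.0393). It had 55.6, 54.7 and 61.6 CPM in knockout libraries 1, 2 and 3 and 54.9, 79.8 and 79.8 in control libraries, so that control library 1 lay among the knockouts.

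Among the 6 membrane proteins, Cd63 and Tmem192 were higher in knockout and 0 were lower. Cd63, a tetraspanin of late endosomes and exosomes (ENSMUSG00000025351.14, chromosome 10, 128900989 to 128912822), had 295, 289 and 268 CPM in knockout libraries 1, 2 and 3, against 212, 139 and 146 in control libraries. All knockout libraries were above all controls, and control library 1 was the highest control (log2 fold change 0.78, SE 0.17, adjusted p = 0.0127). Tmem192, a membrane protein used to tag lysosomes for purification (ENSMUSG00000025521.15, chromosome 8, 64947185 to 64969033), had 44.7, 46.6 and 41.6 CPM in knockout libraries and 33.4, 29.3 and 33.4 in control libraries (0.47, SE 0.13, adjusted p = 0.0286). Cd63 lost its call without control library 2 (0.67, adjusted p = 0.0727). Tmem192 lost its call without control library 2 (adjusted p = 0.151) or 3 (0.0659), and also without knockout library 2 (0.102) or 3 (0.064). Over the fits on 5 libraries, log2 fold changes ran between 0.67 and 1.00 for Cd63 and between 0.41 and 0.52 for Tmem192.

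The LAMP proteins, which make up much of the lysosomal membrane, did not pass the test. Lamp1 had 516, 580.2 and 627 CPM in knockout libraries 1, 2 and 3 and 487, 459 and 491 in control libraries. No knockout library fell within the control range, yet the difference missed the threshold (0.26, SE 0.13, adjusted p = 0.154). Lamp2, which also serves chaperone-mediated autophagy, had 100.3, 107 and 89.3 CPM in knockout libraries and 85.5, 92.6 and 107 in control libraries, with overlapping groups (0.06, 95% interval -0.25 to 0.36). Scarb2, the receptor that carries glucocerebrosidase to lysosomes (-0.02, interval -0.29 to 0.24), and Mcoln1, the calcium channel TRPML1 (-0.04, interval -0.35 to 0.27), had fold changes close to 0.

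The MiT/TFE transcription factors did not pass the test either (0 higher and 0 lower of 3, and 0 with an unadjusted p under 0.05; 0 of 3 also with DESeq2). Tfeb had 15.9, 14.7 and 15.7 CPM in knockout libraries 1, 2 and 3 and 12.6, 15.3 and 14.2 in control libraries (log2 fold change 0.13, 95% interval -0.21 to 0.48). Tfe3 had 41.7, 40.9 and 43.3 CPM in knockout libraries and 41.7, 51.8 and 45.8 in control libraries (-0.15, interval -0.44 to 0.15). Mitf had 88.9, 57.1 and 57.3 CPM in knockout libraries and 69.9, 87.1 and 80.0 in control libraries (-0.22, interval -0.64 to 0.20). Groups overlapped for all 3 genes, and for Mitf the highest of all 6 values was that of knockout library 1. Without that library Mitf was called lower (-0.47, adjusted p = 0.0166). Transcript levels do not report the nuclear share or phosphorylation of these proteins.

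Genes with the TCACGTG element did not differ in one direction. Of the 10 tested genes with it, Ctsd was called higher and Arsa lower, with a median log2 fold change of 0.19 and a range of -0.67 to 0.49. Of 23 tested genes with a window and no such site, 2 were higher and 2 lower, with a median of 0.06. Over all tested genes with a window, 25.8% of 655 with the element and 26% of 8378 without it were called. Cd63, Tmem192, Ctsc and Tpp1 were the called genes without the element in their windows.

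Counts of called lysosomal genes moved with the fit, as did those of all genes. Without knockout library 1, 3 were higher (Ctsd, Cd63 and Tmem192) and 6 lower (Ctsc, Tpp1, Naglu, Arsa, Arsb and Mitf), against 42.2% of all tested genes called, 20% higher and 22.3% lower. With libraries scaled by total counts alone, 1 was higher and 4 lower, against 25.1% called, 5.82% higher and 19.3% lower. With the replicate number as a block, 3 were higher and 3 lower, against 28% called, 12.9% higher and 15.1% lower. With the block and the correction for length and GC content, 1 was higher and 4 lower, against 20.1% called, 9.4% higher and 10.7% lower.

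Knockout library 1 differed from the other knockout libraries at several of these genes. It was the highest of the 3 knockout libraries for 23 of the 35 genes (65.7%), against 41.3% of all tested genes. At 4 genes (Ctsb, Naglu, Arsb and Mitf) it was at least 1.5-fold above both others, or 11.4% against 9.19% of all tested genes. No control library was that far above both other controls at any of the 35. Control libraries 1, 2 and 3 were so at 2.92%, 1.07% and 1.1% of all tested genes. Ctsb had 2404, 1204 and 1286 CPM in knockout libraries 1, 2 and 3 and 1642, 1231 and 1242 in control libraries. Naglu had 72.5, 25.9 and 32.1 CPM in knockout libraries and 39.2, 39.5 and 39.1 in control libraries, so that its knockout libraries lay on both sides of nearly equal controls. Without knockout library 1, Naglu was called lower (-0.44, adjusted p = 0.0284), where it was 0.14 with all libraries, and Ctsb was -0.14 without a call. Ctsf went the other way, with 3.32 CPM in knockout library 1, 6.31 and 9.35 in knockout libraries 2 and 3, and 3.67, 5.81 and 5.47 in control libraries. Summed over the 10 tested proteases, CPM were 6863, 5118 and 5014 in knockout libraries 1, 2 and 3 and 5675, 4610 and 4781 in control libraries, the highest sum being that of knockout library 1. The 6 membrane proteins summed to 1094, 1152 and 1152 CPM in knockout libraries and 951, 855 and 912 in control libraries.

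**Figure D4:**
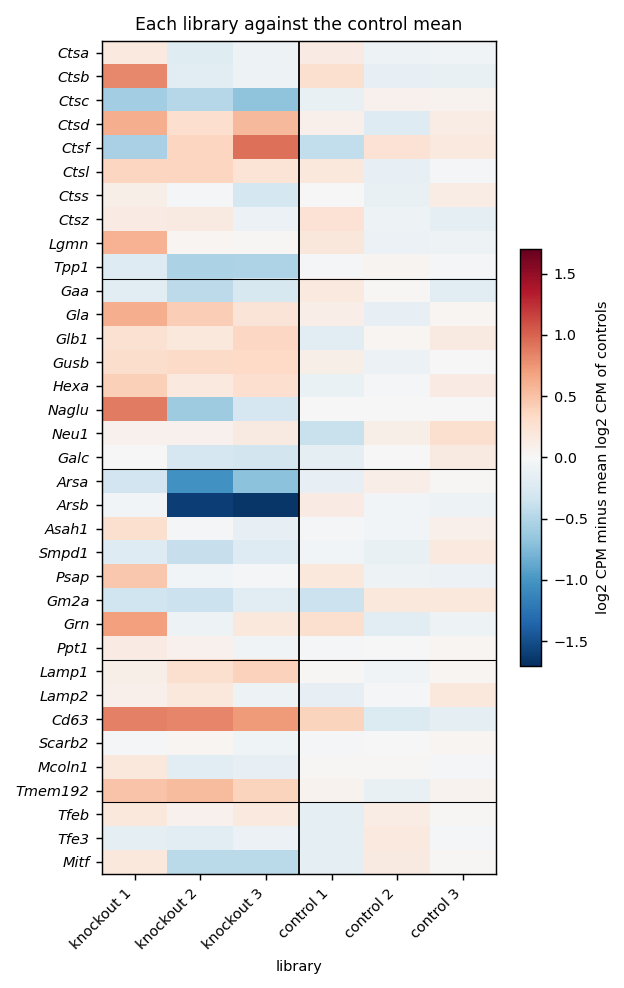
Log2 CPM of each library minus the mean log2 CPM of the controls, for the 35 tested lysosomal genes by role; red is above and blue below the control mean. Arsb is darkest in knockout libraries 2 and 3 and pale in knockout library 1, while Cd63 is red in all 3 knockout libraries.

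Fold changes fell with gene length across the whole data set, and across the lysosomal genes too. In 3 equal bins of exon length, the median log2 fold change over all tested genes was 0.28 in the shortest, 0.02 in the middle (from 3250 bp) and -0.25 in the longest (from 5802 bp). Over the lysosomal genes these medians were 0.24, 0.05 and -0.09 for 10, 15 and 10 genes. Across the 35 genes, log2 fold change and log2 exon length had a Pearson r of -0.34, and across 11376 tested genes -0.28. Genes share libraries and are not independent replicates. With each library's trend on length and GC content removed, Ctsd (0.27, adjusted p = 0.173) and Tmem192 (0.15, adjusted p = 0.36) were no longer called. Cd63 (0.78), Ctsc (-0.57), Tpp1 (-0.40) and Arsa (-0.70) still were, which gave 1 higher and 3 lower of 35 with a background of 20.4%, 9.73% higher and 10.6% lower.

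**Figure D5:**
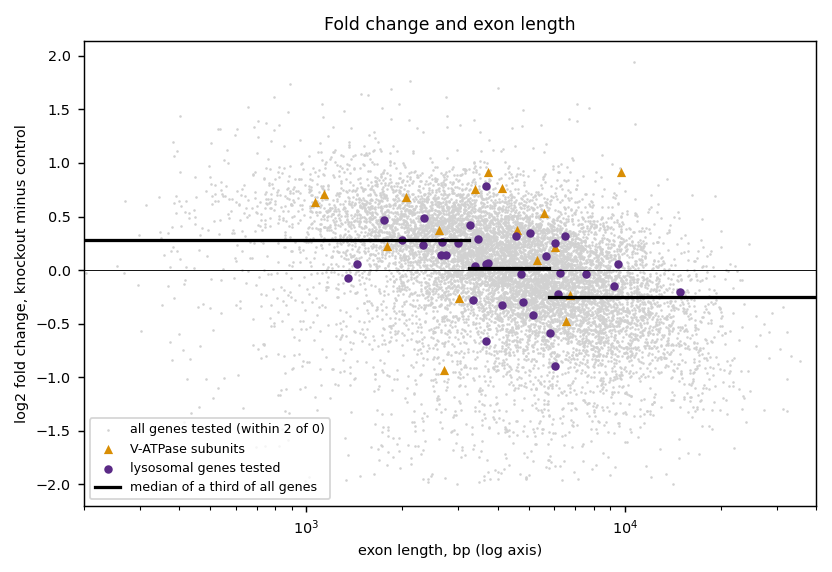
Log2 fold change of knockout minus control against exon length (log axis) for the 35 lysosomal genes (purple), 17 V-ATPase subunits (orange) and all tested genes within 2 of 0 (grey), with black lines at the median of each of 3 equal length bins of all genes. The lines step down through 0.28, 0.02 and -0.25 with length.

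Other genes of the organelle were counted from a list of 98, of which 90 were tested. Of these, 16 were higher and 3 lower in knockout (21.1%), with a median log2 fold change of 0.09, beside 11.8% higher and 13.5% lower over all tested genes. The V-ATPase, the proton pump that acidifies lysosomes, held 8 of the 16. Its list was chosen with earlier results of these data known and need not be complete. Of the 17 subunits and accessory proteins listed, 8 were higher and 0 lower (47.1%). Their sum was 3508, 3497 and 3389 CPM in knockout libraries 1, 2 and 3, against 2580, 2501 and 2649 in control libraries, with no overlap. Atp6v0e, a small membrane subunit, had 153, 194 and 180 CPM in knockout libraries, against 96.0, 93.3 and 89.8 in control libraries (log2 fold change 0.92, SE 0.13, adjusted p = 0.00226). Atp6v1h, a regulatory subunit of the cytosolic part, had 284, 304 and 268 CPM in knockout libraries and 161, 134 and 159 in control libraries (0.91, SE 0.13, adjusted p = 0.00229). Atp6v1e1, of the peripheral stalk (0.77, SE 0.14), and Atp6v0c, of the proton-carrying ring (0.76, SE 0.15), rose too, as did Atp6v0b, Atp6v1c1, Atp6v1f and Atp6v1g1. After correction for length and GC content, 5 of the 17 were higher, Atp6v0c, Atp6v0e, Atp6v1c1, Atp6v1e1 and Atp6v1h. In that fit Atp6ap1, an accessory protein, was lower (-0.43, adjusted p = 0.0327). The background was then 9.73% higher and 10.6% lower. Without control library 2, 3 were higher (Atp6v0e, Atp6v1e1 and Atp6v1h), beside 1.43% of all genes, and Atp6v0c was not called (0.68, adjusted p = 0.0564). Without knockout library 1, 10 were higher and 3 lower, beside 20% and 22.3% of all genes, the lower ones being Atp6v0d2 (-2.27), Atp6v0a1 (-0.68) and Atp6ap1 (-0.35). With the replicate block 2 were lower, and with total counts alone 1 was.

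None of 21 other hydrolases passed the test (0 higher and 0 lower). Of all tested genes 25.3% did, 11.8% higher and 13.5% lower. Of the 21, 2 had an unadjusted p under 0.05 in edgeR, beside 4680 of 11453 tested genes. DESeq2, for which no all-gene share is given here, called 1 of them, the alpha-mannosidase Man2b1, lower. In sorting to lysosomes, M6pr, a mannose 6-phosphate receptor (0.45, SE 0.13), and Gnptg, a subunit of the enzyme that begins the mannose 6-phosphate tag (0.75, SE 0.16), were higher, and 0 of 8 were lower. Of 19 other membrane proteins and transporters, Glmp (0.79, SE 0.13) and the cholesterol carrier Npc2 (0.40, SE 0.13) were higher, and the cystine exporter Ctns (-0.67, SE 0.21) and the channel Tpcn2 (-0.59, SE 0.17) lower. In nutrient sensing, 2 of 12 were higher, Lamtor2 (0.88, SE 0.19) and Lamtor5 (0.67, SE 0.15), both of the Ragulator complex that anchors mTORC1. In fusion with lysosomes, the GTPase Rab7 (0.54, SE 0.14) was higher and its effector Plekhm1 (-0.54, SE 0.15) lower of 10. Of 3 cathepsin inhibitors the cystatin Cstb (0.64, SE 0.20) was higher. The share called was 25% in sorting, 21.1% among membrane proteins and transporters, 16.7% in nutrient sensing and 20% in fusion. None of these exceeded the 25.3% of all tested genes, while the 3 inhibitors stood at 33.3%. Glmp, which stabilises a lysosomal transporter, had 242, 196 and 222 CPM in knockout libraries 1, 2 and 3. In control libraries it had 140.1, 120 and 122. It was called under all 16 alternatives tried, but its exons overlap those of Tmem79 on the opposite strand.

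Counts over these lists changed most without knockout library 1, where 23 of the 90 other lysosome genes were higher and 24 lower. Over all tested genes, 20% were then higher and 22.3% lower. In that fit 0 other hydrolases were higher and 7 lower, and 5 nutrient sensing genes were higher and 4 lower (Fnip1, Fnip2, Mtor and Rptor). It gave 2 higher and 3 lower in sorting, 3 and 4 among other membrane proteins, and 2 and 3 in fusion. DESeq2 called 5 nutrient sensing genes higher, and its share over all genes is not given here.

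Apart from Glmp, each call named for sorting, membrane proteins, nutrient sensing, fusion and inhibitors was lost in at least 1 fit on 5 libraries. The part of the fewer residual degrees of freedom in these losses was not tested. Over these fits log2 fold changes ran between 0.65 and 0.80 for Gnptg, 0.40 and 0.50 for M6pr, -0.66 and -0.48 for Tpcn2, -0.84 and -0.47 for Ctns, 0.36 and 0.49 for Npc2, and 0.72 and 1.05 for Lamtor2. They ran between 0.56 and 0.78 for Lamtor5, 0.45 and 0.62 for Rab7, -0.66 and -0.42 for Plekhm1, and 0.47 and 0.83 for Cstb. Without control library 2 none of them was made, with adjusted p of 0.0723 for Gnptg, 0.154 for M6pr, 0.0883 for Tpcn2, 0.166 for Ctns, 0.194 for Npc2, 0.0548 for Lamtor2, 0.0807 for Lamtor5, 0.112 for Rab7, 0.142 for Plekhm1 and 0.167 for Cstb. Without control library 1 it was 0.0706 for Tpcn2, 0.0671 for Ctns, 0.0921 for Npc2, 0.0601 for Rab7 and 0.0607 for Plekhm1. Without control library 3 it was 0.0806 for M6pr, 0.0656 for Tpcn2, 0.0926 for Ctns, 0.0552 for Npc2 and 0.096 for Cstb. Without knockout library 2 it was 0.0516 for Gnptg, 0.0922 for M6pr, 0.11 for Tpcn2, 0.13 for Ctns, 0.112 for Npc2, 0.0506 for Lamtor2, 0.0597 for Lamtor5, 0.0652 for Rab7, 0.104 for Plekhm1 and 0.0908 for Cstb. Without knockout library 3 it was 0.0989 for M6pr, 0.063 for Tpcn2, 0.0982 for Ctns, 0.0928 for Npc2, 0.0525 for Lamtor5, 0.0944 for Rab7, 0.0863 for Plekhm1 and 0.0543 for Cstb. With the length and GC trend removed, Lamtor2 (0.50), Lamtor5 (0.24), Rab7 (0.31) and Cstb (0.23) were not called. Fold changes kept their sign in each of these fits.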

How the data were processed

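RNA-seq libraries of total RNA, made with a KAPA Hyper Prep kit per the labels' protocols, were compared between PD-L1 knockout and control DC2.4 cells, 3 of each. The submitters' processing notes name Trimmomatic 0.39, STAR 2.7.5c and StringTie 2.1.7 with mm10, without their roles. How reads were counted, with which annotation and whether by strand, is not given in the sources used here, so reads of overlapping genes may be shared: 12 of the 37 listed genes have an exon overlap with another gene of the table. The authors deposited whole-number read counts per gene, unscaled, with 10918498 to 23250065 counts per library, and columns were matched to samples by name.

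Members and lists were chosen with earlier results of these data known. Members were to be named whatever their result, and up to 4 called genes with non-overlapping groups per list of other lysosome genes. Genes passing edgeR's filterByExpr (11453 of 31205) were scaled by TMM and tested in R 4.3.3 by edgeR 4.0.16 with its quasi-likelihood F test, two-sided, knockout against control, with Benjamini-Hochberg adjustment over all of them and a threshold of 0.05. The tests were checked on simulated counts. CPM are TMM-normalised, and log2 fold changes are knockout minus control with the standard error (SE). The p-values reflect only variation among these 6 libraries, possibly technical. In every within-group pair the libraries were further apart than counting error. Exon lengths and GC content came from GENCODE M21 on the same build (100% of the tested lysosomal genes had both), promoters from RefSeq on GRCm38.p6. Alternatives were scaling by total counts alone, by upper quartile or by DESeq2 size factors, a filter of 1 CPM in 3 libraries or none, tests by DESeq2 1.42.0 and limma-voom (limma 3.58.1), a block for the replicate number, loess offsets (span 0.3) on length and GC content with and without the block, and leaving out each library.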

Additional observations from a re-analysis of the deposited data

How the results depend on the processing

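Over 16 alternatives, 474 of 560 log2 fold changes of the 35 tested genes kept their direction and their side of the threshold, 29 lost a call, 11 gained one and 46 changed sign; the cause was not tested. Leaving out 1 library at a time gave 166 to 2346 genes higher and 472 to 2616 lower over all genes, 0 to 3 and 0 to 6 of the lysosomal genes, and 4 to 23 and 0 to 24 of the other lysosome genes. Scaling by total counts alone put the all-gene median of log2 fold changes at -0.14, with 667 higher and 2212 lower against 1353 and 1543 with TMM. Under it 1 lysosomal gene was higher, and 8 other lysosome genes were lower. DESeq2 called 5 lysosomal genes higher and 6 other lysosome genes lower. With the length and GC trend removed, 1 lysosomal gene and 9 other lysosome genes were higher. Other lysosome genes called lower were 7 without a filter and 5 with limma-voom. Shares over all genes are not given here for DESeq2, limma-voom or the fit without a filter. Whether the calls named from these fits exceed such shares is therefore not shown.

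The labels do not say that same-numbered libraries are paired. Correlations of deviations between same-numbered libraries 1, 2 and 3 were 0.15, -0.06 and 0.36. Between differently numbered libraries they ran from -0.32 to 0.14, so whether the numbers pair the libraries was not settled. With the replicate number as a block, 1480 genes were higher and 1732 lower, and 9 other lysosome genes were lower. In that fit Tpp1 was not called (adjusted p = 0.051) and Arsb was (-1.10, adjusted p = 0.00604). The block with the length and GC correction gave 1 lysosomal gene higher, and 10 other lysosome genes higher and 5 lower.

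Signs changed in genes with no call when all libraries entered. Under total counts alone log2 fold changes were -0.094 for Ctsz, -0.088 for Neu1, -0.11 for Asah1, -5.2e-05 for Psap, -0.098 for Ppt1, -0.10 for Lamp2 and -0.022 for Tfeb. With the length and GC correction, without and with the block, they were 0.026 and 0.025 for Ctsa, -0.29 and -0.29 for Ctsz, -0.0015 and -0.035 for Lgmn, -0.012 and -0.17 for Naglu, 0.13 and 0.13 for Galc, -0.11 and -0.13 for Asah1, -0.019 and -0.040 for Psap, -0.073 and -0.079 for Ppt1, 0.057 and 0.057 for Scarb2, 0.18 and 0.18 for Mcoln1 and 0.22 and 0.22 for Tfe3. Naglu was -0.017 with limma-voom and -0.0062 with the block alone. With 1 library left out, log2 fold changes ran between -0.15 and 0.039 for Ctsa, -0.14 and 0.43 for Ctsb, -0.049 and 0.64 for Ctsf, -0.17 and 0.037 for Ctss, -0.015 and 0.19 for Ctsz, -0.44 and 0.41 for Naglu, -0.088 and 0.22 for Neu1, -0.087 and 0.13 for Asah1, -0.040 and 0.25 for Psap, -0.011 and 0.15 for Lamp2, -0.055 and 0.0060 for Scarb2 and -0.17 and 0.028 for Mcoln1, and Naglu was called at its lowest value, without knockout library 1.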
